A study of Mus musculus with 2 samples.

Results

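The core transcription factors of the oligodendrocyte lineage were followed in RNA sequencing libraries of cultured mouse cells, 1 control library and 1 Seh1cKO library. The group was chosen by symbol and holds 10 genes of the 18651 listed in at least 1 library: Olig1, Olig2 and Sox10, which specify the lineage, and Nkx2-2, Nkx6-2, Myrf, Tcf7l2, Zfp488, Zfp536 and St18, which drive or accompany differentiation. All 10 were found in both libraries, and all 10 passed a floor of a mean of 1 CPM (reads per 1000000 reads of the library), below which genes were not counted.

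Both cultures came from cortices of C57BL/6 pups at postnatal days 4 to 7. Cells were immunopanned for GalC and then for O4, grown with PDGF-AA at 20 ng/ml, CNTF at 10 ng/ml, bFGF at 20 ng/ml and NT3 at 1 ng/ml, and harvested on day 2 of differentiation with triiodothyronine (T3, 60 nM), for which PDGF-AA, bFGF and NT3 were taken away. The control genotype is labelled wild type. The Seh1cKO genotype is labelled mutant and carries a conditional knockout of Seh1l, the gene of the nuclear pore and GATOR protein Seh1. The sources used here do not give the Cre driver, the deleted part of the gene or the number of animals per culture. The series title names Seh1 as a partner of Olig2 and Brd7.

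The libraries held 20730114 and 20599590 rounded reads. Seh1l had 32.1 CPM in control against 18.5 CPM in Seh1cKO, so the library labelled Seh1cKO kept a ratio of 0.577 (0.508 to 0.656) of its reads. With 1 library per genotype there was no test of the genotype. Every interval given here is an exact 95% interval for counting error that takes reads as independent. It does not cover the variation between cultures or animals. The libraries also stood apart in sex-linked genes. Xist, which is expressed from the inactive X chromosome of female cells, had 18 reads in control and 7025 in Seh1cKO, and the Y-linked Eif2s3y had 1705 and 1. The 10 factors all lie on autosomes, but their position does not separate sex from genotype. Genotype and sex of the culture cannot be told apart, and a difference by sex was not tested. In bulk RNA, fewer cells of a type and less RNA per cell cannot be told apart either.

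Oligodendrocytes arise from precursor cells in a sequence of transcription factor steps. Olig2, a basic helix-loop-helix protein, commits neural progenitors to the lineage and switches on Sox10, an HMG-box protein that stays on for the life of the cell. When precursors stop dividing, Sox10 and Olig2 together turn on Myrf, a membrane-bound factor that cuts itself free of the endoplasmic reticulum, enters the nucleus and activates myelin genes with Sox10. Nkx2-2 and Nkx6-2 are homeodomain proteins of the differentiating and maturing cell, and Tcf7l2 is the HMG-box effector of Wnt signalling that marks newly forming oligodendrocytes.

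Promoter sequence was read for the members that results turn on, as a view of the DNA in front of 3 genes that were lower in Seh1cKO (Nkx6-2, Nkx2-2 and Tcf7l2) and of Olig2, which was not. The RefSeq promoters for GRCm38.p6 held 6 of the 10 members, without Myrf, Sox10, St18 and Olig1. The stretches below run 5′ to 3′ on the strand of the gene and end before the first annotated exon base. Capitals mark matches on either strand to the E-box CANNTG, the kind of site that Olig and other basic helix-loop-helix proteins bind, or to the Sox core ACAAAG or ACAATG.
Nkx6-2, minus strand, chr7:139582798-139583047: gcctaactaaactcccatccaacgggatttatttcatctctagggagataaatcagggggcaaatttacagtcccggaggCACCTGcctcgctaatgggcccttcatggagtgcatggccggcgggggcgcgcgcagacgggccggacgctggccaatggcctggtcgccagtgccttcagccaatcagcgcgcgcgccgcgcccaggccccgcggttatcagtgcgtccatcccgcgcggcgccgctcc
Nkx2-2, minus strand, chr2:147186456-147186652: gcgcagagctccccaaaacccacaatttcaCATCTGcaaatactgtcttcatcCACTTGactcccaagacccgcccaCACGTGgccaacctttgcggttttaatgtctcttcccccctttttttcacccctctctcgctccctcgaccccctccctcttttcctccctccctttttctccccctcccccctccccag
Tcf7l2, plus strand, chr19:55741560-55741796: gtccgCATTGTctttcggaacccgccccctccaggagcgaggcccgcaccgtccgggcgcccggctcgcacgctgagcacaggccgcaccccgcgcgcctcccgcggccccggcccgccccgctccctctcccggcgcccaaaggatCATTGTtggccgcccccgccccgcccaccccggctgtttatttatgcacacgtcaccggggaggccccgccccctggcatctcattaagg
Olig2, plus strand, chr16:91225300-91225456: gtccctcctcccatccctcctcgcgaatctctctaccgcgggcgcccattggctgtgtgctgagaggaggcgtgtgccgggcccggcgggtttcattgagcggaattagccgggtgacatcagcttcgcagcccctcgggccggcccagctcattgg
The Nkx2-2 stretch precedes the inner start of the gene and lies in an intron of its longer transcripts. Over the full window of 250 bases before the start, Nkx2-2 held 3 E-boxes and Nkx6-2 held 1, all within the stretches shown, and Olig2 and the first start of Tcf7l2 held none. Of 32851 mouse promoter windows of the same length, 66.2% held at least 1 E-box and 12.2% held 3 or more. The Sox core occurred 2 times before Tcf7l2, a count of 2 or more that 4.12% of windows reached, and 1 time before Olig2, in the exonic part that is not shown. At least 1 Sox core stood in 25.2% of windows. Neither form of the Myrf motif, CTGGCAC or CTGGTAC, and neither form of the TCF/LEF motif, CTTTGAA or CTTTGAT, was found in these 4 windows, against 5.93% and 7.48% of all windows. Windows not shown were those of Zfp488 and Zfp536, which held no E-box and no Sox core, and a later start of Tcf7l2. The last held 1 Sox core and no E-box. All these matches describe letters only, and binding was not measured.

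In outline, 5 of the 10 factors (Nkx6-2, Myrf, Tcf7l2, Nkx2-2 and Sox10) were at least 2-fold lower in Seh1cKO and none was at least 2-fold higher. The fold threshold was applied to log2(CPM + 1), which understates the difference of genes with few reads. Over all 13758 measured genes, 1.29% were at least 2-fold lower and 2.86% at least 2-fold higher. Restricted to the 8400 genes whose mean was 20 CPM or more, the abundance range of 8 members, the shares were 1.24% lower and 1.08% higher. The members' median log2 ratio was -0.88, beside 0.07 over all measured genes. Of all 13758 measured genes, 8372 were higher in Seh1cKO by any amount and 5386 were lower.

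**Figure D1:**
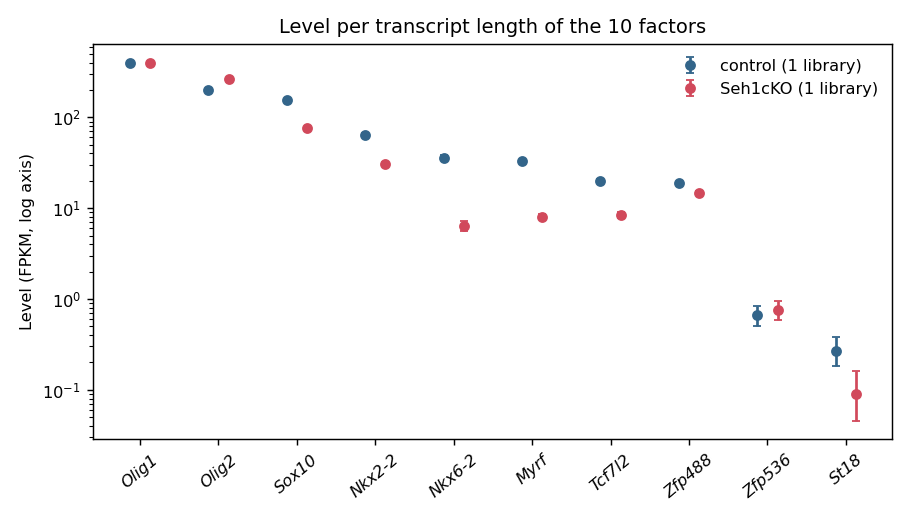
Level of each factor in FPKM (log axis) in the control library (blue) and the Seh1cKO library (red), ordered by the control level; bars are exact 95% counting intervals and there is 1 library per group. Olig1 is level at 397 and 401 FPKM, Olig2 is higher in Seh1cKO, and the points separate downward from Sox10 to Tcf7l2.

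The factors that specify the lineage were the most abundant and did not move together. Olig1 (Entrez 50914, GRCm38 chromosome 16, 91269769 to 91271939), the Olig2 relative that supports myelin gene expression and repair, had 17921 reads in control and 17983 in Seh1cKO. These are 864 and 873 CPM, a ratio of 1.01 whose interval (0.989 to 1.03) includes equality. Its sign turned negative, to between -0.07 and -0.03 on the log2 scale, when libraries were rescaled by the upper quartile, by TMM or by the median of ratios. Olig2 (Entrez 50913, chromosome 16, 91225550 to 91228677) had 10273 reads in control and 13349 in Seh1cKO. Its ratio was 1.31 (1.27 to 1.34), and it was higher in Seh1cKO under each of the 7 other scalings, units and pseudocounts tried, from 0.30 to 0.39 on the log2 scale. Olig2 was the member with the largest upward difference, and 82.5% of measured genes had a lower log2 ratio.

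The Olig genes are neighbours, and the genes around them were compared as a local reference. Paxbp1, the next protein-coding gene past 4932438H23Rik on the Olig2 side, had 55.8 CPM in control against 55.0 CPM in Seh1cKO, with a ratio of 0.986 (0.908 to 1.07). Ifnar2, the interferon receptor subunit on the Olig1 side, was at 46.3 and 47.8 CPM with a ratio of 1.03 (0.944 to 1.13). The nearer 4932438H23Rik had 100 reads in control and 60 in Seh1cKO. The higher level of Olig2 was not shared by Olig1 or, beyond counting error, by these 3 flanking genes, of which 4932438H23Rik was lower at a ratio of 0.604 (0.431 to 0.840).

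Sox10 (Entrez 20665, chromosome 15, 79154913 to 79164490) stood on the other side. It had 8826 reads in control and 4274 in Seh1cKO, or 426 and 207 CPM. That is 2.05-fold lower (1.98 to 2.13), just past the threshold used, and only 1.20% of measured genes had a lower log2 ratio. Sox10 is also a gene of Schwann cells. Of 9 Schwann cell markers 5 were measured, and all 5 were higher in Seh1cKO, with a median log2 ratio of 0.47. Ngfr had 69 reads in control and 104 in Seh1cKO, and Egr2 had 56 and 95. The part of Schwann cells in the Sox10 reads was not tested.

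The homeodomain factors were both lower, to different degrees. Nkx2-2 (Entrez 18088, chromosome 2, 147176485 to 147195434) had 2581 reads in control and 1213 in Seh1cKO, and was 2.11-fold lower (1.97 to 2.27). Nkx6-2 (Entrez 14912, chromosome 7, 139579376 to 139582797), a repressor-type factor needed for orderly myelin and paranode formation, was at 58.8 and 11.0 CPM, on 1218 and 226 reads. At 5.36-fold lower (4.64 to 6.20) it had the largest fold of the 10 members, and 0.153% of measured genes had a lower log2 ratio.

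Myrf (Entrez 225908, chromosome 19, 10208271 to 10240777) had 3889 reads in control and 946 in Seh1cKO, or 188 and 45.9 CPM. It was 4.09-fold lower (3.80 to 4.39). Tmem98, a membrane protein that binds Myrf and blocks its cleavage, had 35.0 CPM in control against 36.6 CPM in Seh1cKO, a ratio of 1.05 (0.943 to 1.16). The Myrf relative Myrfl was all but silent, with 0 and 3 reads.

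Tcf7l2 (Entrez 21416, chromosome 19, 55741797 to 55933659) had 1563 reads in control and 689 in Seh1cKO, and was 2.25-fold lower (2.06 to 2.47). Its family differed in direction. Tcf7l1, mostly a repressor of Wnt targets, was 2.05-fold lower (1.90 to 2.22), from 91.5 to 44.6 CPM. Tcf7 had 10.6 and 11.3 CPM, with a ratio of 1.07 (0.886 to 1.29). Lef1, the activating member, had 21 reads in control and 52 in Seh1cKO. Beta-catenin itself, the Ctnnb1 gene whose protein Tcf7l2 carries to DNA, was at 658 and 786 CPM, 1.19 times the control level (1.17 to 1.22).

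The zinc-finger members were within 2-fold on the log2(CPM + 1) scale. Zfp488 (Entrez 382867, chromosome 14, 33967070 to 33979034), a corepressor that works with Olig2, had 1692 reads in control and 1324 in Seh1cKO and was 1.27-fold lower (1.18 to 1.37). Zfp536 (Entrez 243937, chromosome 7, 37318023 to 37774039), known as a brake on neuronal differentiation, had 61 and 69 reads. With so few reads, its ratio of 1.14 (0.795 to 1.63) could not be told from equality. St18 (Entrez 240690, chromosome 1, 6487231 to 6860940), a Myt1 family member, had 32 reads in control and 11 in Seh1cKO, 2.89-fold lower (1.42 to 6.36) without a pseudocount. Its log2 ratio with the pseudocount was -0.73, inside the threshold, so at 1.54 and 0.534 CPM the call for St18 rests on the choice of scale. With a pseudocount of 0.1 CPM it passed the threshold and 6 of the 10 members were at least 2-fold lower, as were 1.75% of all measured genes. St18 passed the floor only through the control library, where it was higher. The relative Myt1 had 864 and 675 reads, a ratio of 0.786 (0.710 to 0.870), and Myt1l 65 and 112.

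**Figure D2:**
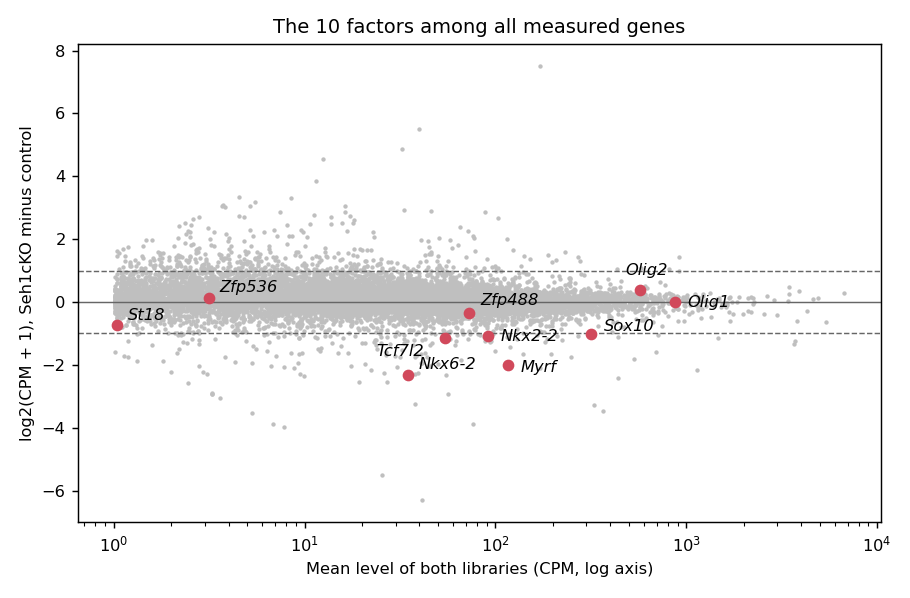
Log2 ratio of Seh1cKO over control, on CPM + 1, against the mean level of both libraries (CPM, log axis) for all 13758 measured genes (grey) and the 10 factors (red); dashed lines mark 2-fold. Nkx6-2 and Myrf lie furthest below the lines, Tcf7l2, Nkx2-2 and Sox10 just below the lower one, and Olig1 on the zero line.

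Read counts depend on transcript length, so levels were ordered on the deposited FPKM, which divides by length. In control the order was Olig1 (397 FPKM), Olig2 (200.5), Sox10 (156), Nkx2-2 (64.4), Nkx6-2 (35.9), Myrf (33.0), Tcf7l2 (19.9), Zfp488 (18.7), Zfp536 (0.66) and St18 (0.27). Counting intervals of neighbours overlapped for Nkx6-2 with Myrf and for Tcf7l2 with Zfp488. In Seh1cKO the first 4 places and the last 2 were held by the same genes, and the middle was turned over: Zfp488 (14.7 FPKM) stood above Tcf7l2 (8.48), Myrf (8.08) and Nkx6-2 (6.38), with overlap between Tcf7l2 and Myrf. In rank among all 18651 genes by FPKM, Olig1 was number 189 in both libraries, Sox10 was number 559 in control and 1201 in Seh1cKO, and Nkx6-2 number 2549 and 8428. Olig1 and Olig2 together held 64.5% of the summed FPKM of the 10 factors in control and 82.0% in Seh1cKO, and Sox10 held 16.8% and 9.40%.

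Ratios between members within a library do not depend on how the libraries are scaled to each other. For 12 pairs the read ratio in Seh1cKO was divided by that in control, with an exact conditional interval. Sox10 relative to Olig2 went from 0.779 to 0.290 on the FPKM scale, and the read ratio was 2.68-fold lower (2.57 to 2.81). Myrf relative to Olig2 was 5.34-fold lower (4.95 to 5.77). Myrf was also lower relative to Sox10, by 1.99-fold (1.84 to 2.16), so the difference in Myrf was larger than that in Sox10 beyond counting error. Nkx6-2 was lower relative to Myrf by 1.31-fold (1.12 to 1.54) and relative to Nkx2-2 by 2.53-fold (2.16 to 2.98). Olig1 was 1.29-fold lower relative to Olig2 (1.25 to 1.34).

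On read counts, Sox10, Nkx2-2 and Tcf7l2 formed a set whose differences could not be separated from each other. On FPKM, which uses the deposited lengths, Tcf7l2 relative to Sox10 was 0.127 in control and 0.111 in Seh1cKO. No interval was computed on that scale, so the set is not claimed for it. The ratio of ratios was 0.971 for Nkx2-2 over Sox10 (0.897 to 1.05), 0.910 for Tcf7l2 over Sox10 (0.825 to 1.00) and 0.938 for Tcf7l2 over Nkx2-2 (0.837 to 1.05). Zfp488 lay between this set and the Olig genes, 1.62 times higher relative to Sox10 (1.49 to 1.75) and 1.66-fold lower relative to Olig2 (1.54 to 1.79).

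**Figure D3:**
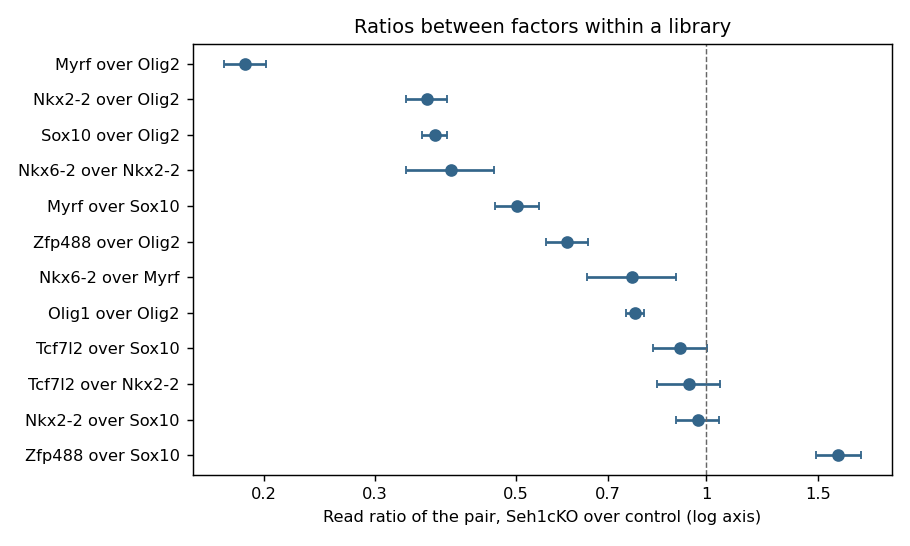
Read ratio of 12 pairs of factors in Seh1cKO divided by the same ratio in control (log axis), with exact 95% counting intervals; 1 means that both genes of a pair differed by the same factor. Myrf over Olig2 is lowest at 0.187, and the 3 pairs among Sox10, Nkx2-2 and Tcf7l2 cross or touch 1.

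Overlapping genes and transcript forms bear on several of these values, since the sources used here do not state whether counting used the strand. In the GENCODE M21 annotation of GRCm38, exons of Nkx6-2 share 246 of 1907 bases with the end of Inpp5a on the opposite strand, which had 1109 reads in control and 1000 in Seh1cKO. Exons of Nkx2-2 share 278 of 2875 bases with the antisense RNA Nkx2-2os, listed with 25 and 4 reads. Olig1 shares 157 of 2162 exon bases with Gm15966, which neither library lists. The expected count of Zfp488 was not whole in either library (1692.37 and 1323.78), although 1 transcript is listed for it. Where exons of both strands overlap, reads cannot be told apart without strand.

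The deposited transcript length of a gene is an average over its transcripts and can shift between libraries. For Nkx6-2, with 2 transcripts, it was 1641 bases in control and 1726 bases in Seh1cKO, 5.20% longer. For Tcf7l2, which is spliced into many forms and is listed with 8, it was 3764 and 3905 bases, 3.75% longer. Nkx2-2 differed by -0.998%, and the other 7 members had equal lengths in both libraries. Among 4495 measured genes with several transcripts, 5.90% shifted by 5% or more and 10.2% by 3% or more. On the FPKM scale, which uses these lengths, Nkx6-2 was 5.63-fold lower and Tcf7l2 2.34-fold lower.

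Genes that Sox10 and Myrf are known to activate were mostly lower in Seh1cKO. Of 16 listed, 12 were measured, of which 10 were lower and 2 higher; 8 were at least 2-fold lower and 1 at least 2-fold higher, with a median log2 ratio of -1.74. Mag, an adhesion protein of the inner myelin membrane, had 2981 reads in control and 180 in Seh1cKO, and Mbp, the protein that compacts myelin, 12401 and 1250. Mog, a late surface protein of the sheath, was at 5.74 and 0.388 CPM, and Opalin at 3.42 and 0.194 CPM. Both passed the floor only through the control library. Ugt8a, the galactolipid synthase of myelin, was 3.67-fold lower (3.35 to 4.03). The higher genes were the iron carrier Trf, 2.12 times the control level (1.98 to 2.27), and the lysophosphatidic acid receptor gene Lpar1, with 293 and 373 reads (ratio 1.28, 1.10 to 1.498). Dusp15, a phosphatase gene controlled by both factors, had 1080 and 543 reads, 1.98-fold lower (1.78 to 2.20). Gjb1, Erbb3 and Mobp were among the genes under the floor, so at this depth they carry little information. The promoters and enhancers of these genes were not assayed.

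Partners and cofactors of the factors were near level. All 15 measured genes were within 2-fold, with a median log2 ratio of -0.01 and a range from -0.24 to 0.26. The furthest were Ctnnb1, given above, the corepressor Tle4 at 45.2 and 38.0 CPM (ratio 0.842, 0.765 to 0.927), the E protein Tcf12 at 128 and 149 CPM (ratio 1.16, 1.10 to 1.23), and the deacetylase Hdac1 at 115 and 99.1 CPM (ratio 0.863, 0.813 to 0.916). Ep300, a histone acetyltransferase, was at 45.2 and 50.9 CPM. Hdac2, which cooperates with Hdac1 in differentiation, was at 143 and 132 CPM. Brd7, the bromodomain protein of the series title, was at 76.8 and 71.8 CPM, with a log2 ratio of -0.10.

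Other transcription factors of the lineage spread in both directions. Of 20 measured genes, 1 was at least 2-fold lower, 2 at least 2-fold higher and 17 within 2-fold, with 10 on each side of 0 and a median of -0.05. Hes5, a Notch effector, had 1372 reads in control and 339 in Seh1cKO. Id4, an inhibitor of helix-loop-helix proteins, was 1.80-fold lower (1.63 to 1.99). Among the higher genes, Prox1, a homeodomain factor, had 55 and 173 reads, 3.17 times the control level (2.32 to 4.37), and the POU factor Pou3f1 had 102 and 236. Prrx1, which is expressed by precursors that have left the cycle and also by fibroblasts, had 23.9 and 47.8 CPM, for a ratio of 2.00 (1.79 to 2.23). Hes1 was at 8.73 and 16.4 CPM. The closest relative of Sox10, Sox8, was at 243 and 153 CPM, 1.59-fold lower (1.52 to 1.66), and Sox9, which astrocytes share, was at 334 and 285 CPM.

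Among family relatives that do not belong to the group, 10 of 17 were measured, 1 at least 2-fold lower (Tcf7l1) and 1 at least 2-fold higher, with a median of 0.03. The higher gene was Nkx2-1, a factor of the ventral forebrain, with 46 reads in control and 143 in Seh1cKO (ratio 3.13, 2.23 to 4.46). Nkx6-1 had 0 and 12 reads and Olig3 0 and 1, so neither reached the floor. Targets of Wnt signalling gave no common direction beside the lower Tcf7l2. Of 7 measured, 1 was at least 2-fold higher and none at least 2-fold lower, with a median of 0.06. Ccnd1, the G1 cyclin, had 10253 reads in control and 27758 in Seh1cKO, Axin2, a feedback inhibitor, 498 and 517, and Nkd1, another inhibitor, 1347 and 927. Lgr5 had 20 and 48 reads, Sp5 14 and 36, and Apcdd1 1320 and 1078. Lgr5 and Sp5 passed the floor only through Seh1cKO.

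With 2 libraries the only pattern a gene can have is its ratio. Among 86 other list genes whose mean was 20 CPM or more, those closest to Myrf in log2 ratio (-2.01) were S100b (-1.96), Hes5 (-1.94) and Ugt8a (-1.84). Those closest to Sox10 (-1.03) were Tcf7l1 (-1.02), the matrix proteoglycan Bcan (-1.06) and Nkx2-2 (-1.07).

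**Figure D4:**
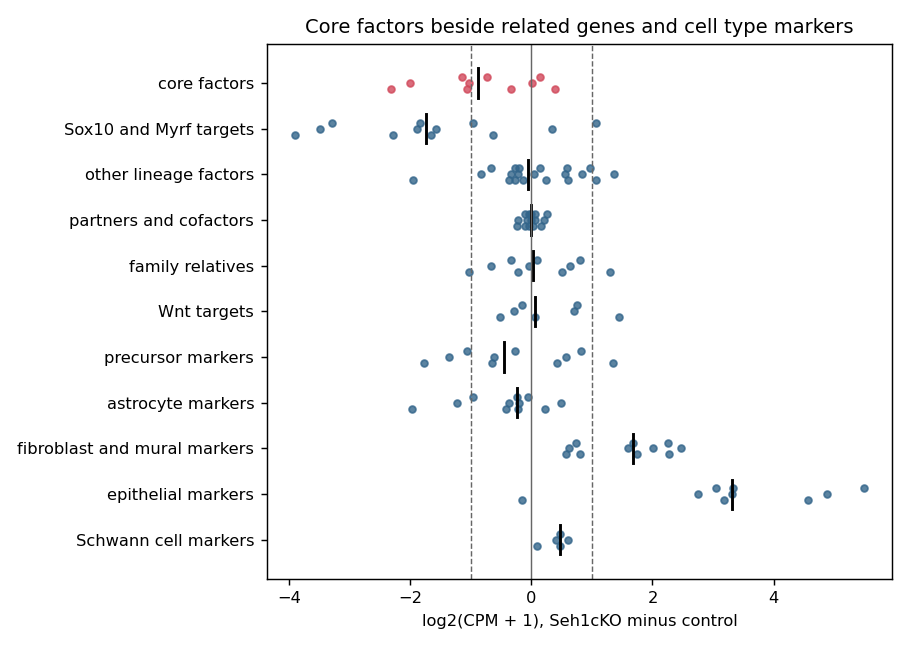
Log2 ratio of Seh1cKO over control, on CPM + 1, for each measured gene of the core factors (red) and of related gene lists and cell type markers (blue); black bars are list medians and dashed lines mark 2-fold. The core factors have a median of -0.88, the Sox10 and Myrf targets -1.74, and the partners and cofactors stay within 2-fold. The fibroblast and mural markers and all epithelial markers shown but Epcam lie to the right of 0.

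Markers of other cells differed between the same libraries and stand beside every value above. Counts of higher or lower markers are to be read beside all 13758 measured genes, of which 8372 were higher in Seh1cKO and 5386 lower. Fibroblast and mural markers were higher in Seh1cKO in 11 of 11 measured genes, 7 of them at least 2-fold, and their summed level went from 421 to 1118 CPM. The most abundant were Fn1 at 114 and 348 CPM, Cspg4, which precursors share, at 98.8 and 148 CPM, and Col1a1 at 45.2 and 184 CPM. Epithelial markers were at least 2-fold higher in 8 of 9 and summed to 11.8 and 230.1 CPM, with Krt8 at 0.772 and 78.7 CPM, Krt18 at 1.21 and 63.9 CPM and Msln at 0.0965 and 24.9 CPM. Cldn4 and Esrp1 were at 0 in control, with 186 and 20 reads in Seh1cKO. Epcam, the measured gene that was not higher, had 7.91 CPM in control and 7.04 CPM in Seh1cKO, a ratio of 0.890 (0.707 to 1.12). The floor applies to the mean of both libraries. Krt8, Krt7, Krt17, Krt19, Cdh1, Msln and Cldn4 were under 1 CPM in control. For these genes, passing the floor required a higher level in Seh1cKO.

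Astrocyte markers summed to 12173 CPM in control and 7921 CPM in Seh1cKO, with a median log2 ratio of -0.23. Of 11 measured, 9 were lower, 2 of them at least 2-fold (Gfap and S100b), and 2 were higher. The higher genes were Aldh1l1 at 414 and 483 CPM and Gja1 at 109 and 153 CPM. The most abundant were Gfap at 5200.1 and 2214 CPM, Atp1b2 at 2873 and 2228 CPM and Slc1a3 at 1227 and 1072 CPM. Neuron markers summed to 443 and 497 CPM, with Map2 at 279 and 270 CPM, Tubb3 at 91.0 and 79.6 CPM and Stmn2 at 28.7 and 58.7 CPM, and 10 of 12 were higher in Seh1cKO. Endothelial markers summed to 28.0 and 62.4 CPM, with Slco1c1 at 16.1 and 32.3 CPM, Cdh5 at 1.01 and 13.8 CPM and Kdr at 5.35 and 4.95 CPM. Of 6 measured endothelial genes 5 were higher. Under the floor, Cldn5 had 0 reads in control and 1 in Seh1cKO, and Tek had 4 and 3. Esam, under 1 CPM in control, passed the floor only through Seh1cKO. Microglia markers summed to 9.07 and 19.1 CPM, led by Cd68 (3.67 and 8.30 CPM), Tmem119 (0.868 and 4.17 CPM) and P2ry12 (1.21 and 1.65 CPM), and all 4 measured genes were higher. Tmem119 and Cx3cr1 passed the floor only through Seh1cKO. Schwann cell markers summed to 256 and 280 CPM, of which Pmp22, a gene of many cell types, made up 245 and 262 CPM, with Ngfr at 3.33 and 5.05 CPM and Egr2 at 2.70 and 4.61 CPM, and all 5 measured genes were within 2-fold and higher in Seh1cKO.

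Precursor markers were split. Of 10, 6 were lower and 4 higher, with a median of -0.44. At least 2-fold lower were 3 (Bcan, Gpr17 at 386 and 113 CPM, and C1ql1), and at least 2-fold higher was 1 (Xylt1, 73 and 217 reads). The other higher genes were Ptprz1, Cspg4, given above, and Pdgfra at 156 and 277 CPM (ratio 1.77, 1.70 to 1.85). Bcan was at 962 and 460 CPM, the heparan sulphate editor Sulf2 at 721 and 595 CPM, and the phosphatase Ptprz1 at 488 and 657 CPM. The summed level of these 10 genes went from 3297 to 2558 CPM, beside 2318 and 1946 CPM for the 10 core factors. The part of other cells in the members' ratios was not tested.

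The authors' deposited table for this comparison lists 5 of the 10 members among its 896 genes, all as lower in Seh1cKO. Its log2 fold changes, computed there from FPKM, were -2.49 for Nkx6-2, -2.03 for Myrf, -1.23 for Tcf7l2, -1.07 for Nkx2-2 and -1.04 for Sox10. The p-values in the authors' deposited table rest on 1 library per group, and the sources used here do not name the test behind them.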

How the data were processed

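RNA was sequenced from 1 control and 1 Seh1cKO culture. For each library the authors deposited, per the file headers, 3 values for every gene: an expected count, an FPKM (scaled for library size and transcript length) and a transcript length in bases. HTSeq, StringTie and the mm10 build are named in the submitters' processing notes, without the column each made. The sources used here do not give the aligner or the strand setting. A further table deposited by the authors gives log2 fold changes, each with a false discovery rate and p-value, and was used to say which members it lists.

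Expected counts were rounded, genes missing from a library were set to 0, and counts were scaled to CPM. Log2 ratios used a pseudocount of 1 CPM. Ratios and folds in the text are without it, with exact Clopper-Pearson intervals (95%); pair ratios have exact conditional intervals (SciPy 1.17.1). The intervals treat reads as independent and cover counting error only. PCR reads without molecular identifiers are not independent, so the intervals can be too narrow even for that error. No test across conditions was possible. A count of 0 allows up to 3 counts, or 0.145 CPM in control and 0.146 CPM in Seh1cKO.

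The members and lists were chosen with earlier results of these data known. Named genes are all members, up to 6 per related list in order of the size of the log2 ratio, the 3 marker genes with the highest level per cell type, and genes overlapping or flanking members; not every gene that this picks is printed, and some results are not reported here. Others named (Tmem98, Myrfl, Tcf7, Myt1, Axin2, Brd7, Sox9, Nkx6-1, Olig3, Cldn4, Esrp1, Cldn5, Trf, Lpar1, Dusp15, Xist, Eif2s3y and genes below the floor) were added after their values were seen. So were Krt7, Krt17, Krt19, Cdh1, Epcam, Esam, Cx3cr1, Aldh1l1, Gja1, Pdgfra, Gpr17, C1ql1 and Xylt1. Rescaling used edgeR 4.0.16 (TMM) and DESeq2 1.42.0 (median of ratios). The calls were tried on simulated counts with counting error only and folds well past the threshold. That setting tests neither calls near 2-fold, nor genes with few reads, nor the spread between cultures. Positions are from RefSeq GRCm38.p6, promoters from its sequence table, overlaps from GENCODE M21. Every column of per-sample values that was used belongs to a mapped library.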

Additional observations from a re-analysis of the deposited data

How the results depend on the processing

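The count of 5 members at least 2-fold lower in Seh1cKO was the same under median-of-ratios, upper-quartile and TMM scaling, the deposited FPKM, a pseudocount of 5 CPM, no floor, a floor of 5 CPM and counts that were not rounded. With a pseudocount of 0.1 CPM it was 6, with St18 as the added gene. The share of all measured genes at least 2-fold lower ran from 0.843% to 1.75%, and the share at least 2-fold higher from 1.02% with a pseudocount of 5 CPM to 4.63% with one of 0.1 CPM. On the deposited FPKM these shares were 1.36% and 1.80%. No member was at least 2-fold higher under any of these 9 alternatives. The members' median log2 ratio ranged from -1.06 with a pseudocount of 0.1 CPM to -0.67 with one of 5 CPM. On FPKM and with a floor of 5 CPM only 8 members were measured, Zfp536 and St18 being under the floor. Under the 7 alternatives that change a single ratio, Sox10 ranged from -1.12 to -1.02, Nkx2-2 from -1.15 to -1.02, Tcf7l2 from -1.23 to -1.06, Myrf from -2.09 to -1.91 and Nkx6-2 from -2.41 to -1.997. Olig1 was -0.06 with the median of ratios, -0.03 with the upper quartile and -0.07 with TMM, against 0.01. Depth limits Zfp536 and St18. No replicate could be left out, and no paired analysis was possible because each group holds 1 library.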
